A study of Mus musculus with 24 samples.

Results

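Digestive enzymes of the pancreatic acinar cell were followed on 12 arrays of mouse duodenum, with 12 arrays of liver as the comparison tissue. The set holds the 10 listed genes *Cpa1*, *Cpb1*, *Ctrb1*, *Pnlip*, *Pnliprp1*, *Clps*, *Cel*, *Cela2a*, *Cela3b* and *Rnase1*, and its probe sets are those that the probe-to-gene table assigns to 1 of these symbols and to no other. Of the 10 genes, 9 had such a probe set, among the 18194 genes with one in the whole series. *Pnlip*, pancreatic triglyceride lipase, had none and is not described further. These 9 genes were covered by 13 probe sets, and all 13 passed the filter on low signals (20 or more on at least 3 arrays of either tissue), which 28061 of the 45101 probe sets of the array passed. Each gene is given by the probe set with the highest mean log2 signal over the duodenum arrays. Values are the deposited array signals on a linear scale on which each array had a trimmed mean of 100, so values of 1 gene can be compared between arrays, but those of different genes cannot be ranked.

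The mice were males 7 weeks old of the strains C57BL/6 (B6) and DBA/2 (D2). In each strain, 3 wild-type mice (WT) and 3 mice with a disrupted *Hfe* gene (*Hfe*-/-, KO), a model of hereditary hemochromatosis, were studied, with 1 array per mouse and tissue. Knockout mice were bred in the study's own facility and wild-type mice were purchased, so breeding source and genotype cannot be told apart. All were kept on one iron-containing diet and fasted before they were killed. Arrays are named by strain, genotype and mouse number, as in D2 KO 2. *Hfe* itself ranged from 76.6 to 105 on the 6 WT duodenum arrays and from 15.7 to 45.1 on the 6 KO duodenum arrays. As a check of the tissue, *Alpi*, intestinal alkaline phosphatase of the enterocyte brush border, ranged from 7318 to 8926 on the duodenum arrays against a liver median of 8.02, and *Alb*, albumin of the hepatocyte, from 1.53 to 21.3 against a liver median of 13525.

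Acinar cells make up most of the pancreas and secrete, largely as inactive precursors, the enzymes that digest protein, fat and nucleic acid in the gut. Their enzyme genes are switched on together by the PTF1 complex, in which PTF1A, a basic helix-loop-helix factor, binds an E-box and RBPJL binds a neighboring TC-rich site. The head of the pancreas lies in the loop of the duodenum and drains into it. In RNA of a whole tissue, fewer cells of a type and less RNA per cell cannot be told apart.

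The 250 bases upstream of the start sites of the acinar genes were searched for the letters of these motifs. They were CACCTG for the E-box (CAGGTG on the other strand) and TTTCCC for the TC-rich site (GGGAAA on the other strand). Sequences came from RefSeq (GRCm38.p6), which gave a promoter for 8 of the 9 measured genes, all but *Clps*. CACCTG was present in 4 of these 8 promoters, *Cpb1*, *Cela2a*, *Cela3b* and *Cel*, and in 17.2% of all 32817 promoters. TTTCCC was present in 4 of the 8, *Cpa1*, *Ctrb1*, *Cela2a* and *Cel*, and in 21.9% of all promoters. Both were present in *Cela2a* and *Cel*, and in 3.61% of all promoters. These 2 promoters, and that of *Cela3b*, which held CACCTG 2 times, are printed 5′ to 3′ on the strand of the gene, with matches in capitals. They lie at chr2:28563404-28563653 (minus strand) for *Cel*, chr4:141826006-141826255 (minus strand) for *Cela2a* and chr4:137430521-137430770 (minus strand) for *Cela3b*. A match is a string of letters and not a measured binding site, and no match says only that these letters are not in this window. Whether these letters bear on how the genes varied between arrays was not tested.
Cel: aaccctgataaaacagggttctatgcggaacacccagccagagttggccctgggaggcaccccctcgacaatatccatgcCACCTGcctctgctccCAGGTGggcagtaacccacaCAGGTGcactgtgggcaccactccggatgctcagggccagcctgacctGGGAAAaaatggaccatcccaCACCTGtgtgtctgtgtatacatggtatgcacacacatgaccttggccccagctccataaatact
Cela2a: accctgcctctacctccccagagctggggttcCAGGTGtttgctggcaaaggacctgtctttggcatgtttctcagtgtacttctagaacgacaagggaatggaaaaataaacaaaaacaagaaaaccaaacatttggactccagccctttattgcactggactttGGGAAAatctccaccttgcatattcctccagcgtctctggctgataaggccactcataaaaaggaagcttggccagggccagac
Cela3b: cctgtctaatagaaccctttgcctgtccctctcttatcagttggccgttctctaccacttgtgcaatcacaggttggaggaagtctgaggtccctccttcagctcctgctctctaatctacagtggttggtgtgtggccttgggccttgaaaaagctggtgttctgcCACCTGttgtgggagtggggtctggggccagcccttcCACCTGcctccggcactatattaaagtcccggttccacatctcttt

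The acinar genes varied widely between mice of the same group. The geometric mean of the 9 signals was 5567, 4593 and 1045 on B6 WT 1 to 3, 4283, 5995 and 9080 on B6 KO 1 to 3, 4248, 2404 and 6154 on D2 WT 1 to 3, and 9049, 92.2 and 225 on D2 KO 1 to 3. The highest array was 98.4-fold above the lowest, and D2 KO held both the second highest array and the 2 lowest. All 9 genes had their 2 lowest signals in D2 KO 2 and D2 KO 3, their next lowest in B6 WT 3 and the one after that in D2 WT 2. B6 KO 3 was highest for 5 of the genes and D2 KO 1 for the other 4. As a share of the summed signal of an array, the 9 genes ranged from 0.0324% in D2 KO 2 to 1.05% in B6 KO 3 and D2 KO 1. The mean log2 signal of the 9 genes was 11.55 ± 1.32 in B6 WT, 12.59 ± 0.54 in B6 KO, 11.96 ± 0.68 in D2 WT and 9.16 ± 3.51 in D2 KO (SD, n = 3 mice each).

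**Figure D1:**
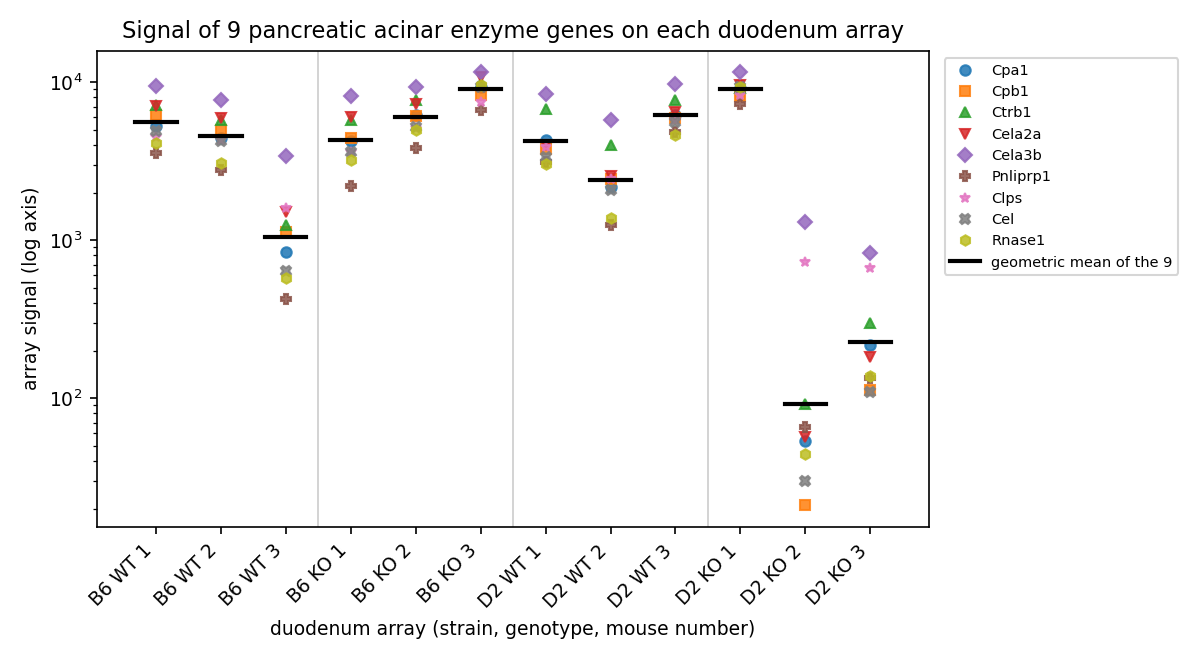
Array signal (log axis) of the 9 acinar enzyme genes on each of the 12 duodenum arrays, grouped by strain and genotype, with the geometric mean of the 9 as a black bar. The bar stands at 92.2 for D2 KO 2 and 225 for D2 KO 3, at 1045 for B6 WT 3, and between 2404 and 9080 for the other 9 arrays.

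Among the proteases, the carboxypeptidases trim amino acids from the end of a peptide. *Cpa1* encodes carboxypeptidase A1, which prefers aromatic and branched residues. The signal of *Cpa1* was 5295, 4449 and 844 in B6 WT 1 to 3, 4233, 6214 and 9324 in B6 KO 1 to 3, 4305, 2171 and 6157 in D2 WT 1 to 3 and 9133, 53.3 and 217 in D2 KO 1 to 3. Its lowest and highest values were 175-fold apart, and 2 of the 3 D2 KO values lay under every other array, whereas the third was above all D2 WT values. *Cpb1* encodes carboxypeptidase B1, which removes basic residues. *Cpb1* measured 6197, 4984 and 1122 on the 3 B6 WT arrays, 4428, 6125 and 8318 on the 3 B6 KO arrays, 3748, 2425 and 5899 on the 3 D2 WT arrays and 8131, 21.1 and 112 on the 3 D2 KO arrays. Its D2 KO values again lay on both sides of the D2 WT values, and the lowest of them lay near the array medians of 20.1 to 23.4, so no span is given for it.

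The endopeptidases cut within the protein chain. *Ctrb1* encodes chymotrypsinogen B1. On arrays 1 to 3 of each group, *Ctrb1* had signals of 7171, 5734 and 1239 in B6 WT, 5772, 7726 and 9860 in B6 KO, 6789, 3997 and 7759 in D2 WT and 9239, 91.5 and 299 in D2 KO. These values spanned 108-fold, with 2 D2 KO values lowest and B6 KO overlapping B6 WT. *Cela2a*, an elastase, varied by 188-fold. The signal of *Cela2a* was 7064, 5908 and 1512 in B6 WT 1 to 3, 5987, 7223 and 10734 in B6 KO 1 to 3, 3983, 2552 and 6478 in D2 WT 1 to 3 and 9650, 57 and 181 in D2 KO 1 to 3. B6 KO 3 was the highest of these. *Cela3b*, a further elastase of the same family, had 4 probe sets of its own. *Cela3b* measured 9508, 7710 and 3385 on the 3 B6 WT arrays, 8199, 9297 and 11517 on the 3 B6 KO arrays, 8391, 5761 and 9705 on the 3 D2 WT arrays and 11530, 1305 and 832 on the 3 D2 KO arrays. This probe set, the brightest of the 4, spanned 13.9-fold, and the other 3 spanned 94-fold to 199-fold. All 4 had their lowest value in D2 KO 2 or D2 KO 3, where the brightest one read 1305 and 832. A further probe set assigned to both *Cela3a* and *Cela3b* was left out.

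Fat is digested by lipases with the help of a cofactor. *Pnliprp1* encodes pancreatic lipase-related protein 1, a close relative of pancreatic lipase with little activity of its own. On arrays 1 to 3 of each group, *Pnliprp1* had signals of 3578, 2792 and 424 in B6 WT, 2186, 3857 and 6687 in B6 KO, 3101, 1246 and 4849 in D2 WT and 7304, 65.5 and 134 in D2 KO. The span was 112-fold, and D2 KO 2, D2 KO 3 and B6 WT 3 were again lowest. *Clps* encodes colipase, the cofactor that holds pancreatic lipase at the fat droplet in the presence of bile salts. The signal of *Clps* was 4501, 4287 and 1595 in B6 WT 1 to 3, 3612, 5106 and 7491 in B6 KO 1 to 3, 3893, 2442 and 5748 in D2 WT 1 to 3 and 8310, 726 and 668 in D2 KO 1 to 3. These values spanned 12.4-fold, and the second probe set of *Clps* spanned 24.7-fold. *Cel* encodes bile salt-activated lipase, which also cleaves cholesterol esters. *Cel* measured 4911, 4260 and 638 on the 3 B6 WT arrays, 3613, 5189 and 9280 on the 3 B6 KO arrays, 3381, 2063 and 5565 on the 3 D2 WT arrays and 9374, 29.9 and 109 on the 3 D2 KO arrays. The 2 lowest were again in D2 KO, and D2 KO 2 was near the array median.

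*Rnase1* encodes the secreted pancreatic ribonuclease. On arrays 1 to 3 of each group, *Rnase1* had signals of 4105, 3081 and 574 in B6 WT, 3199, 4955 and 9545 in B6 KO, 3014, 1382 and 4604 in D2 WT and 9368, 44.4 and 138 in D2 KO. The D2 KO values of *Rnase1* included one at 2.03 times the highest D2 WT value and 2 under all D2 WT values, and the span over the 12 arrays was 215-fold.

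The 9 genes behaved nearly as 1 quantity. Over the 12 duodenum arrays, the 36 pairwise correlations of their log2 signals ranged from 0.939 to 0.998 (Pearson), and 98.8% of their variance lay on the first principal component. With the group means removed the range was 0.915 to 0.998, and over the 10 arrays left without D2 KO 2 and D2 KO 3 it was 0.923 to 0.995. The points of each correlation share an RNA sample and an array, so they describe these arrays only. On the 12 liver arrays the same pairs had correlations from -0.23 to 0.73 with a median of 0.26. The probe sets used for the genes differed in how steeply they followed the others. The slope of each one's log2 signal on the mean of the other 8 ranged from 0.52 for *Clps* and 0.54 for *Cela3b* to 1.26 for *Cel* and 1.30 for *Cpb1*. *Clps* and *Cela3b* stood 3.35 and 4.30 log2 units above the mean of the other 8 in D2 KO 2, the array with the lowest mean, and at their lowest they stood at -0.34 in B6 WT 1 and 0.39 in B6 KO 3. These values hold for the brightest probe set of each gene. In D2 KO 2 the other *Cela3b* probe sets read 43.6, 55.1 and 98.1, against 1305. The second *Clps* probe set read 369 there, against 726.

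Within groups, the acinar genes were among the most variable of the array. The SD of log2 signal within the 4 duodenum groups was 1.11 for *Cela3b*, 1.19 for *Clps* and 1.89 to 2.38 for the other 7, against a median of 0.26 over all 28061 probe sets. Of the 100 probe sets with the largest such SD, 9 were among the 13 probe sets of the set. The described probe sets of *Ctrb1*, *Clps* and *Cela3b* were not among the 100. Another 19 belonged to other genes of the acinar lists described further on and 8 to a list of stomach and Brunner gland genes.

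Liver served as the comparison tissue. Each of the 9 genes was higher in duodenum, by a median log2 difference of 9.47, and all 9 were called at an adjusted p of 0.01, against 67.9% of all probe sets called and 41.1% called higher in duodenum (limma, Benjamini-Hochberg). Apart from *Cel* and *Cela2a*, the described probe sets passed the filter on low signals through the duodenum arrays alone. For these the filter itself favored a higher duodenal value, so the calls add no independent support for the direction. For *Cel* the difference was 6.98 ± 0.67 (SE), with an adjusted p of 3.59e-09. For *Clps* it was 11.59 ± 0.44 with an adjusted p of 3.04e-16, and 8.77 ± 0.47 by its second probe set. The sizes rest on dim liver signals and were not ranked between genes. On liver arrays, 95 of 108 liver values lay under the median signal of their array, which was 15.8 to 21 in liver, and the highest was 40.8, for *Cela2a* in B6 WT 2. The lowest duodenal values, 21.1 for *Cpb1* and 29.9 for *Cel* in D2 KO 2, lay near the duodenal array medians of 20.1 to 23.4. For *Cel* this value was under the liver maximum of 34.4, and for *Cpb1* the liver maximum was 17.2. The experiment records of the arrays show 5 hybridization runs, and liver and duodenum shared 1 of them. With run as a block, 6 of the 9 genes were called higher in duodenum, against 16.3% of all probe sets, and *Pnliprp1* (5.33), *Cel* (5.95) and *Rnase1* (6.59) were not.

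**Figure D2:**
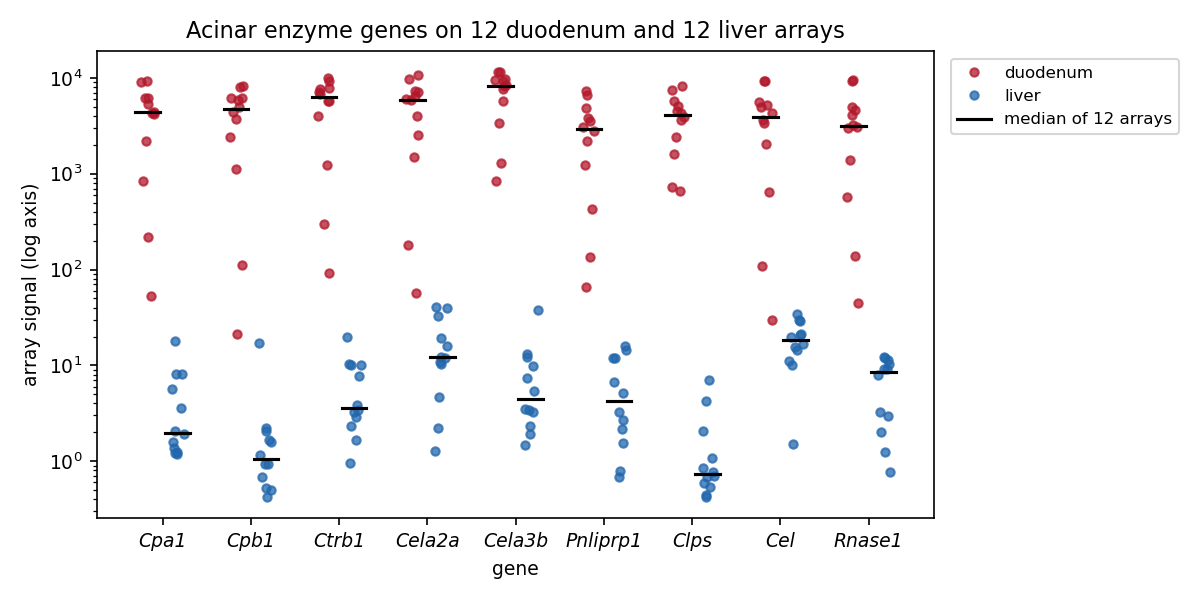
Array signal (log axis) of each acinar enzyme gene on the 12 duodenum arrays (red) and the 12 liver arrays (blue), 1 point per array and a black bar at the median of each tissue. Liver values reach 40.8 at most, whereas the lowest duodenal median is 2946, for *Pnliprp1*.

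The study asked what loss of *Hfe* changes in the duodenum of each strain. In D2 mice the acinar genes were lower in KO than in WT on average, but none passed the test. The median log2 fold change of the 9 was -3.03, against 0.03 over all probe sets. The values ran from -1.25 ± 0.77 (SE) for *Clps* to -3.81 ± 1.51 for *Cpb1*, with adjusted p from 0.322 to 0.558 (limma, Benjamini-Hochberg over all probe sets), and 0 of 9 were called at 0.1, where 0.378% of all probe sets were called and 0.121% were called lower. At an unadjusted p under 0.05, 3321 of the 28061 probe sets and 6 of the 9 genes stood. The SE and p rest on a spread pooled over all duodenum groups, which were unequal. The SD of the mean log2 signal of the 9 genes was 3.51 in D2 KO, 0.68 in D2 WT, 1.32 in B6 WT and 0.54 in B6 KO. The same pooled spread was used for the B6 and strain comparisons in duodenum below. Without D2 KO 1 the median was -5.17 and 9 of 9 genes were called lower, against 1.44% of all probe sets in that fit. Without D2 KO 2 and D2 KO 3, a choice made after the values were seen that leaves 1 KO array assumed to vary like the other groups, the median was 1.24 and all 9 genes were higher in the KO array, none of them called. All 6 D2 arrays were hybridized in 1 run. At the fluidics station that held both genotypes, the 3 KO arrays differed from D2 WT 3 by a median of -3.62, from -1.85 for *Clps* to -4.46 for *Cpb1*, with no test on a single WT array.

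**Figure D3:**
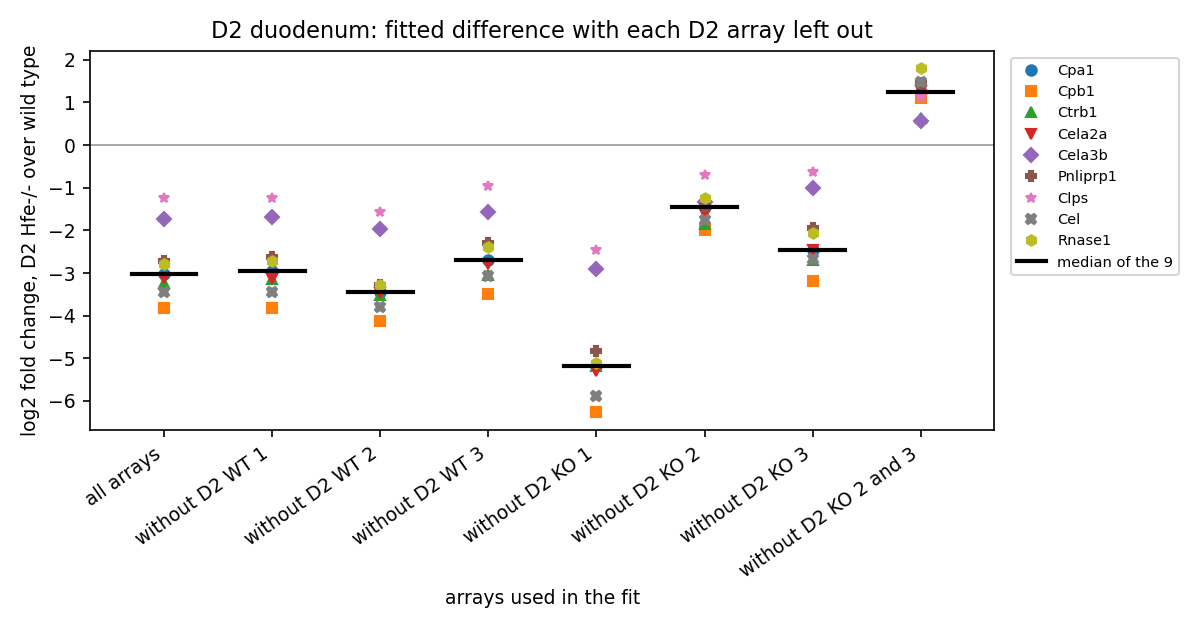
Log2 fold change of D2 *Hfe*-/- over D2 wild type in duodenum for the 9 acinar enzyme genes (points) and their median (black bar), fitted with all arrays, without each D2 array in turn, and without D2 KO 2 and D2 KO 3 together. The median moves from -3.03 with all arrays to -5.17 without D2 KO 1 and to 1.24 without D2 KO 2 and D2 KO 3.

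In B6 mice the 9 genes were higher in KO on average, with a median log2 fold change of 1.04 and a range from 0.61 ± 0.72 (SE) for *Cela3b* to 1.46 ± 1.45 for *Rnase1*. All adjusted p lay between 0.929 and 0.964 and 0 of 9 were called, against 0.0107% of all probe sets (limma). At an unadjusted p under 0.05 there were 1588 probe sets and none of the 9 genes. Without B6 WT 3, the low array of its group, the median was 0.26. In the hybridization run that held B6 WT 1 to 3 and B6 KO 1, the single KO array differed from the WT mean by a median of 0.59, with no test. The KO effect in D2 minus that in B6 had a median of -4.24, from -1.98 for *Clps* to -4.71 for *Cpb1*, and 0 of 9 genes were called (adjusted p from 0.428 to 0.556), where 0.0143% of all probe sets were called, 0.00356% being called lower, and 2930 had an unadjusted p under 0.05. Without D2 KO 1 all 9 were called lower, against 0.666% of all probe sets in that fit, with a median of -6.27.

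Between the wild-type strains, no acinar gene passed the test. The median log2 difference, D2 minus B6, was 0.47, from 0.02 ± 1.34 (SE) for *Cela2a* to 0.71 ± 1.37 for *Pnliprp1*, and 0 of 9 were called at an adjusted p of 0.01, where 3.37% of all probe sets were called (limma). At an unadjusted p under 0.05 there were 5085 probe sets and none of the 9. Its sign was not stable: the median was -0.33 without B6 WT 3 and -0.48 with hybridization run as a block. The B6 WT and D2 WT arrays were hybridized in different runs, so wild-type strain and run cannot be told apart directly. The blocked value rests on the B6 KO arrays, which were split between those runs. Among KO mice the median was -3.73, D2 being lower, with adjusted p from 0.0916 for *Cela2a* to 0.228 for *Clps*, and 0 of 9 were called against 3.65% of all probe sets, 1.86% being called lower (limma). At an unadjusted p under 0.05 there were 5850 probe sets and all 9 genes. Without D2 KO 1, 9 of 9 were called lower, against 2.07% of all probe sets in that fit, with a median of -5.86, and without D2 KO 2 and D2 KO 3 the median was 0.54. In liver, 0 of 9 genes were called for *Hfe* loss in D2 (median -0.38, background 2.75%) or in B6 (median -1.31, background 1.02%) by limma, at signals mostly under the array median. At an unadjusted p under 0.05 there were 3733 and 3234 probe sets, with none of the 9 genes in D2 and 1 in B6, *Cela3b*. That value, -2.22, was of the brightest *Cela3b* probe set only. The other 3 *Cela3b* probe sets had -0.23, 0.09 and -0.40 in B6 liver, with unadjusted p of 0.704 to 0.895 (limma).

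Most other measured enzymes of the acinar cell varied with the set. Of 16 further enzyme genes listed, 9 had a probe set, and 7 of these 9 correlated at 0.9 or more with the mean of the set over the 12 duodenum arrays. The other 2 were *Prss3*, a further trypsinogen (0.86), and *Ctrc* (0.48). *Prss3* was 747 in B6 KO 2 but 314 in B6 KO 3, where the mean of the set was highest. *Prss2*, a trypsinogen, had its lowest signals of 158 and 329 in D2 KO 2 and D2 KO 3 and its highest of 10851 in D2 KO 1. *Ctrl*, a chymotrypsin-like protease, ran from 67.3 in D2 KO 2 to 9216 in B6 KO 3. *Sycn*, syncollin of the zymogen granule, ran from 60.5 in D2 KO 2 to 6985 in D2 KO 1. None of the 9 was called for *Hfe* loss in either strain, and their medians were -2.19 in D2 and 1.54 in B6.

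The acinar regulators and secretory machinery, a list of 10 genes of which 9 passed the filter, correlated with the set at 0.33 to 0.96 with a median of 0.82, and 1 of the 9, *Pdia2*, reached 0.9. *Pdia2*, the protein disulfide isomerase of the pancreas, was 16.8 and 18.9 in D2 KO 2 and D2 KO 3, 64.2 in B6 WT 3, and 1746 and 1973 in B6 KO 3 and D2 KO 1. *Ptf1a* was lowest in D2 KO 2 (4.42) and D2 KO 3 (9.35) and highest in D2 KO 1 (82), with 13.5 to 47.1 on the other arrays. Most of its values lay near or under the duodenal array medians of 20.1 to 23.4, which limits this order. Its log2 fold change for *Hfe* loss in D2 was 0.05 ± 0.77 (SE). *Nr5a2*, a nuclear receptor also used by liver and intestine, ranged only from 122 to 211. None of the 9 was called for *Hfe* loss in duodenum, against 0.378% of all probe sets in D2 and 0.0107% in B6. The medians were -0.38 in D2 and 1.17 in B6. From D2 WT 3 to D2 KO 1 the ratio was 1.19 to 2.03 with a median of 1.48 for the set, and 1.15 to 6.24 with a median of 3.43 for this list. The highest signal of any probe set on a duodenum array was 12775, and 11530 of the set (*Cela3b*). Whether the brightest probe sets were compressed near this level was not tested.

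Genes that the intestine makes as well gave a mixed picture. Of 8 genes shared by acinar cells and gut, *Cela1* (elastase 1) ran from 204 in D2 KO 2 to 9688 in B6 KO 3. *Gp2* ran from 32.4 in D2 KO 2 to 4138 in D2 KO 1. *Reg1*, a secreted lectin of acinar and intestinal cells, stayed between 7427 and 10024, *Zg16* of goblet cells between 7484 and 10165, and *Dmbt1* between 5645 and 8257. These steady genes do not stand for the whole list. Its correlations with the set ranged from 0.22 to 0.999 with a median of 0.82, and 2 of the 8, *Cela1* and *Gp2*, reached 0.9. The mean log2 signal of the 8 genes spanned 3.18 log2 units. None of the 8 was called for *Hfe* loss in duodenum, against 0.378% of all probe sets in D2 and 0.0107% in B6. The medians were -0.16 in D2 and 0.39 in B6.

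The 12997 other genes with a probe set were ranked by the Pearson correlation of their log2 signal with the mean of the set over the 12 duodenum arrays. In this order 16 reached 0.9. The first 11 were *Prss2* (0.999), *Cela1* (0.999), *Ctrl* (0.998), *2210010C04Rik* (0.993), *Sycn* (0.977), *Pdia2* (0.958), *Gp2* (0.950), *Pla2g1b* (0.946), *Cuzd1* (0.929), *Serpini2* (0.926) and *Pnliprp2* (0.924), and of these all but *2210010C04Rik* are on an acinar list. Without D2 KO 2 and D2 KO 3 they kept correlations of 0.897 to 0.998. The next 4, *Emp3* (0.923), *Nxpe3* (0.909), *Ighm* (0.906) and *Slc38a5* (0.905), fell to 0.514 to 0.756 without those arrays. At the other end stood *Ikzf5* (-0.966), *Snx13* (-0.932), *Acbd5* (-0.919), *Zdhhc2* (-0.890) and *Smtn* (-0.887), which spanned 0.32 to 1.18 log2 units against 6.62 for the mean of the set.

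*Ctrc*, chymotrypsin C, had the lowest correlation with the set among the 9 other acinar enzymes measured, 0.48. In B6 mice its signal was 147, 78.1 and 15.7 in WT 1 to 3 and 87.4, 165 and 535 in KO 1 to 3. In D2 mice it was 4325, 2318 and 6136 in WT 1 to 3 and 8673, 55.2 and 154 in KO 1 to 3. It kept the array order of the set in D2, and in B6 but for WT 2 and KO 1, which changed places. Relative to the mean of the set it stood at -6.06 to -4.09 log2 units in B6 and at -0.74 to 0.03 in D2, with no overlap. Wild-type D2 exceeded wild-type B6 by 6.13 ± 1.44 (SE) on the log2 scale, with an adjusted p of 0.0215 that missed 0.01 (limma). Without D2 KO 1 the adjusted p of this difference was 0.000445, and with only the WT arrays in the fit it was 0.0013. In KO mice the difference was 1.08, with an adjusted p of 0.738. With the mean of the set as a covariate, added after the values were seen, the difference was 5.66 ± 0.28 in WT and 4.99 ± 0.35 in KO mice, with adjusted p of 1.78e-07 and 8.33e-06. *Ctrc* was itself picked after its values on these arrays were seen, so the p given for it are no independent support. With hybridization run as a block and no covariate, the WT difference was 4.36 with an adjusted p of 0.666. All D2 arrays and 2 of 6 B6 arrays, B6 KO 2 and B6 KO 3, shared a run, so the wild-type strains had no run in common.

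**Figure D4:**
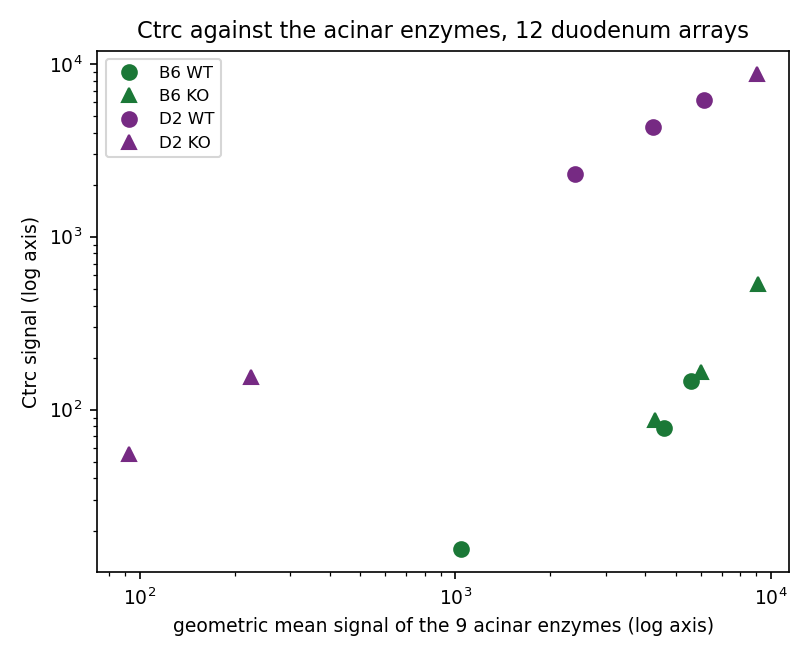
Signal of *Ctrc* (log axis) against the geometric mean of the 9 acinar enzymes (log axis) on the 12 duodenum arrays, B6 in green and D2 in purple, WT as circles and KO as triangles. The 6 D2 arrays and the 6 B6 arrays lie apart, and at like acinar levels *Ctrc* reads 4325 in D2 WT 1 and 87.4 in B6 KO 1.

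Markers of other cell types were read on the same arrays, each list centered on its mean over the 12 arrays. Spans of a list are those of the mean of its genes. For the 11 measured genes of enterocytes, absorptive cells of the villus, this mean spanned 0.57 log2 units. It spanned 0.59 for the 8 smooth muscle genes of the gut wall, against 6.62 for the acinar set. Single enterocyte genes could vary more. *Lct* ran from 786 in D2 WT 2 to 3879 in B6 WT 1 and *Anpep* from 241 in D2 KO 3 to 1007 in B6 KO 2, whereas *Alpi* ran only from 7318 to 8926. The smooth muscle mean was highest in D2 KO 3 and D2 KO 2 (0.32 and 0.20) and lowest in D2 KO 1 (-0.26), and its genes correlated with the set at -0.89 to -0.07. The islet list, of which 6 of 12 genes passed the filter, spanned 1.90. Its genes correlated with the set at -0.39 for *Sst* to 0.61 for *Ins2*, with a median of 0.32, so *Ins2* followed the set most closely. *Ins2*, insulin, was highest in B6 KO 3 (533), D2 KO 1 (182) and B6 WT 1 (104), and was 6.23 or less on 6 arrays, D2 KO 2 and D2 KO 3 among them. The 6 pancreatic duct genes, led by *Krt19*, spanned 1.38, and their correlations with the set ranged from -0.39 to 0.82. *Jchain*, a plasma cell gene of the lymphoid list, had its 2 lowest signals in D2 KO 3 (3921) and D2 KO 2 (4347) and lay between 5577 and 7581 on the others. The summed signal of the 8 lymphoid genes was 4199 to 7978 in D2 KO and 6815 to 8210 in D2 WT. Most of this sum was *Jchain* itself, so it adds little about the other genes of the list. The hepatocyte, adipocyte and mesothelium lists spanned 1.71, 1.32 and 0.74. The part of these cell types in the acinar differences was not tested.

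The stomach and Brunner gland list varied almost as widely as the acinar set, by 5.89 log2 units, in another order of arrays. *Gkn3*, a gastrokine of the stomach, was 313, 8214 and 7768 in B6 WT 1 to 3, 9518, 229 and 10497 in B6 KO 1 to 3, 84.4, 8895 and 124 in D2 WT 1 to 3, and 667, 113 and 6225 in D2 KO 1 to 3. *Tff2*, a trefoil peptide of Brunner glands and gastric mucous cells, was 603, 7241 and 6827 in B6 WT 1 to 3, 8644, 726 and 9289 in B6 KO 1 to 3, 234, 8297 and 438 in D2 WT 1 to 3, and 2024, 7.06 and 6498 in D2 KO 1 to 3. Both were high in D2 KO 3, in D2 WT 2, and in B6 mice WT 2 and 3 and KO 1 and 3. *Gkn2* was 647 in D2 WT 2 and 3057 in B6 KO 1 but 4.33 in D2 KO 3. The correlations of the 8 measured genes with the acinar set ranged from -0.11 to 0.40. Of the 2 arrays with the highest acinar signals, B6 KO 3 was high for *Gkn3* and D2 KO 1 was not, and of the 2 with the lowest, D2 KO 3 was high and D2 KO 2 was not. The summed signal of the 8 genes was 1144 to 20169 in B6 WT, 1106 to 24386 in B6 KO, 403 to 18918 in D2 WT and 273 to 12909 in D2 KO.

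**Figure D5:**
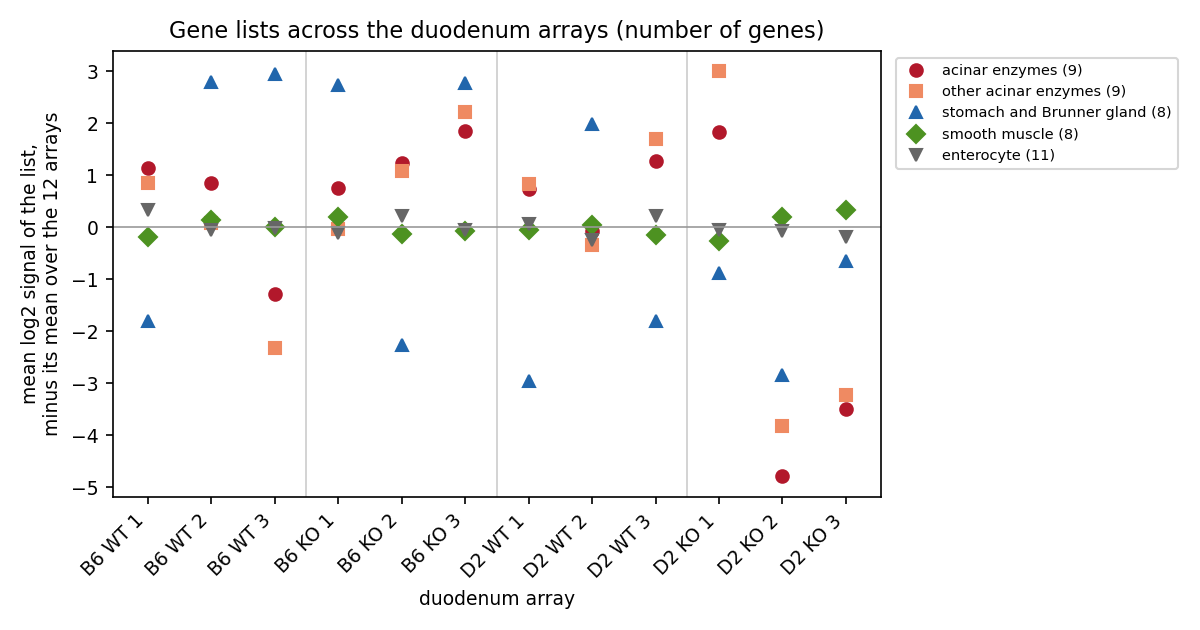
Mean log2 signal of 5 gene lists on each duodenum array, minus the mean of the list over the 12 arrays, with the number of genes of each list in brackets. The acinar set runs from -4.79 in D2 KO 2 to 1.84 in B6 KO 3, the stomach and Brunner gland list from -2.95 in D2 WT 1 to 2.94 in B6 WT 3, and the enterocyte list from -0.24 to 0.33.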

How the data were processed

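Total RNA of liver and duodenum was hybridized to 24 Affymetrix Mouse Genome 430 2.0 arrays, 1 per mouse and tissue. The authors deposited MAS5 signal intensities, scaled per array to a target mean of 100 (the MAS5 version is not given in the sources used here). Log2 of the deposited intensities was fitted here with limma 3.58.1 in R 4.3.3, with 1 mean per group, a mean-variance trend and Benjamini-Hochberg adjustment over 28061 probe sets, those at 20 or more on at least 3 arrays of either tissue. Genes were called at an adjusted p of 0.1 for *Hfe* loss and of 0.01 between wild-type strains, after the rates the study set for its own score, which needs probe-level files not used here and had a further cut on its size. For the interaction 0.1 was taken, and for KO strains and tissue 0.01. Probe sets were named from the platform annotation: 34958 had 1 symbol, 932 several and 9211 none. Where a gene had several, the brightest over the duodenum arrays was used. For 13 lists (125 genes), the 4 brightest genes of a list could be named, and outside the set the 15 genes most and 5 least correlated with its mean. *Ptf1a*, *Prss3*, *Alb*, *Lct* and *Anpep* were named outside this rule, and *Ctrc* was tested, after their values were seen. The set and the lists were chosen with earlier results of these data known. The fit was tested on simulated data.

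The number of arrays, 3 per group, limits the precision, and a two-sided exact permutation test of 3 against 3 could not give a p under 0.1. Alternatives were an added constant of 16, quantile normalization, no filter or a stricter one, fewer groups in the fit, no trend, replicate number or hybridization run as a block, the mean of all probe sets and each array left out. Arrays with the same number correlated at -0.16 to 0.12 in their deviations from group means, so the numbers were not taken as pairs. Run with station as a block, D2 KO 2 and D2 KO 3 left out and the covariate for *Ctrc* were added after seeing the data.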

Additional observations from a re-analysis of the deposited data

How the results depend on the processing

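For the acinar genes, 16 counts and medians were recomputed under each alternative, and 363 of 376 values stayed near the main one, that is, a count within 1.5 times or a median within 1 SD between replicates of the mean log2 signal (1.92 in duodenum, 0.67 in liver, 1.44 over both), a wide margin in duodenum. With D2 KO 1 left out the count of genes called rose to 9 for *Hfe* loss in D2, for its interaction with strain and for D2 against B6 KO mice, the medians being -5.17, -6.27 and -5.86. Leaving out each array in turn gave 0 to 9 calls for each of these, with medians of -5.17 to -1.46, -6.27 to -2.67 and -5.86 to -2.19. Without D2 KO 2 and D2 KO 3 these medians were 1.24, 0.22 and 0.54, and the D2 values became 1.24 for *Cpa1*, 1.11 for *Cpb1*, 0.64 for *Ctrb1*, 1.46 for *Pnliprp1*, 1.13 for *Clps*, 1.47 for *Cel*, 1.26 for *Cela2a*, 0.57 for *Cela3b* and 1.81 for *Rnase1*. In liver the D2 median was 0.38 with the mean of all probe sets, and -0.75 to 0.39 with each array left out. With 16 added to the signals the B6 liver median was -0.32 and the tissue median 6.92, since the constant exceeds most liver signals of these genes. The *Ctrc* difference among KO mice was -0.46 with run and station as a block and -1.10 without D2 KO 1, and with each array left out it ran from -1.10 to 2.55. With the replicate number as a block, the D2 median was -3.03, and the pairing changed no call. Fitting only the groups compared could not be done for the interaction or for tissue, which use all groups. Except where given, the cause was not tested. Signals near the array median, as in liver and in D2 KO 2, limit what folds mean there.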

Other observations

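Of the genes listed with pancreatic duct, *Cftr*, the chloride channel of duct and crypt cells, was high on the arrays that were high for stomach genes. *Cftr* was 404, 1259 and 1074 in B6 WT 1 to 3, 1147, 376 and 830 in B6 KO 1 to 3, 528, 1172 and 457 in D2 WT 1 to 3, and 470, 648 and 852 in D2 KO 1 to 3. Its highest 6 arrays were those named above for *Gkn3* and *Tff2*, and its correlation with the acinar set over the 12 arrays was -0.25. *Pdx1*, a factor of both islet and duodenum, ranged from 301 to 468 and read 377 in D2 KO 2 and 416 in D2 KO 3, where the acinar enzymes were lowest.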
